A study of Macaca mulatta with 4 samples.

Results

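Bone morphogenetic proteins (BMPs) and the receptors that bind them were followed through the fetal rhesus macaque cerebellum. The members were taken by gene symbol, with earlier results of these data known, and were 10 of the 30807 genes in the count tables. The 6 ligands were BMP2 (gene ENSMMUG00000019849), BMP4 (ENSMMUG00000000429), BMP5 (ENSMMUG00000011858), BMP6 (ENSMMUG00000021600), BMP7 (ENSMMUG00000004074) and GDF10 (ENSMMUG00000011912). The 4 receptors were BMPR1A (ENSMMUG00000011852), BMPR1B (ENSMMUG00000006702), ACVR1 (ENSMMUG00000018497) and BMPR2 (ENSMMUG00000009009).

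BMPs are secreted dimers of the TGF-beta superfamily that bind a complex of type I and type II serine/threonine kinase receptors on the receiving cell. BMPR2 is a type II receptor, and BMPR1A, BMPR1B and ACVR1 are type I receptors that phosphorylate SMAD1, SMAD5 and SMAD9, which enter the nucleus with SMAD4 and raise targets such as the ID genes. GDF10, also called BMP3B, is a related ligand that is known as a Bergmann glia transcript in the cerebellum. In the developing cerebellum, BMP ligands from the roof plate take part in specifying granule cell precursors, and the meninges lie directly over the external granule layer in which these precursors divide.

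Cerebellar nuclei were profiled by single-nucleus RNA-seq in 4 fetuses, 2 per group, with 1 library from each fetus. The Control group held a female and a male fetus, both at day 130 of gestation, with no intervention. The LPS group held a male fetus at day 133 and a female fetus at day 131, each 5 days after 1 mg of lipopolysaccharide, a bacterial cell wall component, was given into the amniotic fluid as a model of chorioamnionitis. All 4 were rhesus macaques with no genetic alteration named in the labels, and the libraries are called by group and sex below.

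Values are raw UMI counts (unique molecular identifiers, each standing for 1 captured transcript), summed over the nuclei of a cell class in a library and given as CPM, that is per 1000000 UMIs of that sum. CPM of one gene can be compared between classes, but levels of different genes are not compared. Between 6890 and 9250 nuclei per library passed the filters, with median UMIs of 4508 in the Control female, 1882 in the Control male, 4063 in the LPS female and 2308.5 in the LPS male library. Both female libraries therefore had more UMIs per nucleus, which is what depth means below. Sex moves together with this depth and with the mitochondrial share (0.264% and 0.212% in the females, 0.0214% and 0.0318% in the males). Total UMIs over all barcodes did not follow sex, at 61665690 in the Control female, 34282015 in the Control male, 41642819 in the LPS female and 56935290 in the LPS male library. The share of all UMIs that lay in nuclei was 73.9% in each female library, 58.7% in the Control male and 38.7% in the LPS male. Free RNA was estimated from low-count barcodes outside the nuclei, where nuclei of low depth were not told apart from it. These barcodes had a median of 283 UMIs in the Control female, 182 in the Control male, 215 in the LPS female and 467 in the LPS male library. They had at most 291, 192, 221 and 442 genes in the same order. Pairs of libraries shared 16 to 21 barcodes.

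Clustering, in which the members and the other BMP pathway genes were left out of the features, gave 22 clusters and 14 classes, each named because it was like a cell type by its markers. Meningeal fibroblasts raised 11 of 11 detected markers over 2-fold, endothelial cells 11 of 11, Bergmann glia 9 of 10 and the granule lineage 11 of 12. Of the 2 clusters left unnamed, the larger had 2525 nuclei of low depth, of which 1937 came from the LPS male library. Fibroblasts were few, with 137 nuclei in the Control female, 212 in the Control male, 156 in the LPS female and 40 in the LPS male library.

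BMP6, BMP2 and GDF10 came largely from small classes, while most UMIs of BMPR2, ACVR1 and BMPR1A came from the granule lineage, which made up 68.1% of nuclei. Fibroblasts were 1.67% of nuclei and gave 61.2% of BMP6 UMIs, 46.1% of BMP2 UMIs and 28.2% of BMP5 UMIs. Bergmann glia were 5.45% of nuclei and gave 49.5% of GDF10 UMIs. Astrocytes were 4.31% of nuclei and gave 34.7% of BMPR1B UMIs and 27.6% of BMP4 UMIs. The oligodendrocyte lineage was 1.44% of nuclei and gave 26.7% of BMP7 UMIs. The granule lineage held 65.5% of BMPR2 UMIs, 66.1% of ACVR1 UMIs, 56.2% of BMPR1A UMIs and 61.7% of BMP5 UMIs. The BMP5 shares rested on the LPS female library, which gave 2876 of the 5238 UMIs; without it the granule share was 46.1% and the fibroblast share 42.4%. Detection differed widely between members, from 206 UMIs of BMP7 to 77973 UMIs of BMPR2 in all nuclei.

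**Figure D1:**
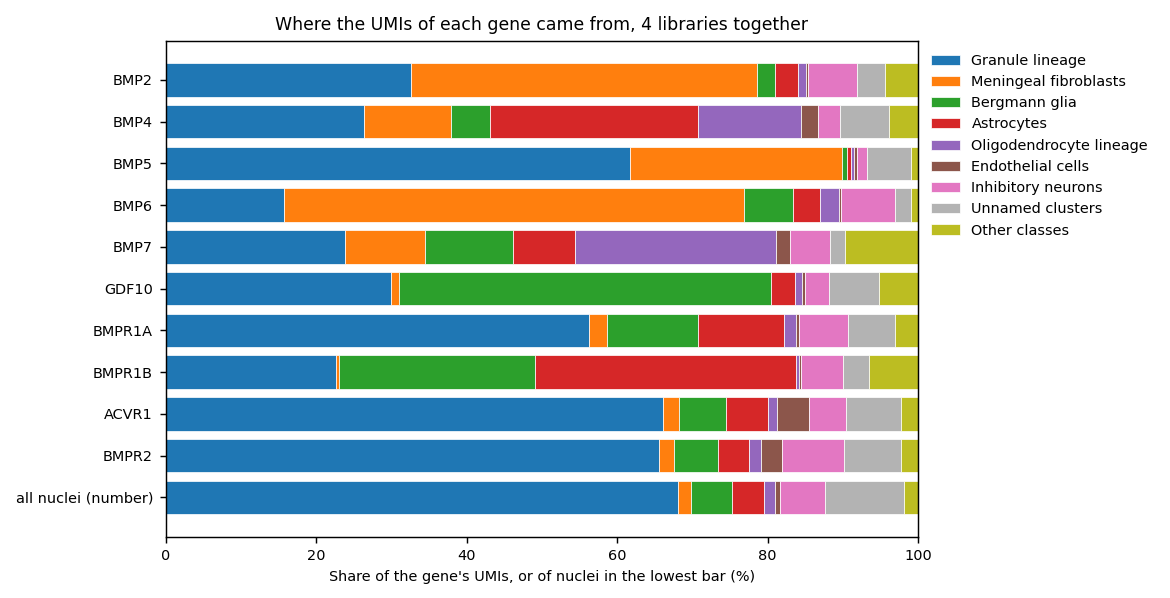
Share of each member's UMIs, in percent on the horizontal axis, that came from each class over the nuclei of all 4 libraries, with the share of nuclei in the lowest bar. Fibroblasts, at 1.67% of nuclei, gave 61.2% of BMP6 UMIs, and the granule lineage, at 68.1% of nuclei, gave 65.5% of BMPR2 UMIs.

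Each class was compared with the mean of the other classes of the same libraries by edgeR's quasi-likelihood test with Benjamini-Hochberg adjustment over 12269 genes, and a gene was called at an adjusted p under 0.05 and a log2 fold change beyond 1. In meningeal fibroblasts 5 of the 10 members were called higher (BMP2, BMP4, BMP5, BMP6 and BMP7), against 13.1% of all genes tested. BMPR1B was the member called lower there, against 6.74% of all genes. For genes that were at 0 in some class, the fitted log2 fold change depends on the small count the fit adds. The SE given with edgeR values is the size of the log2 fold change over the square root of the test's F statistic. In class and stage contrasts it draws on the spread of all class or stage sums of the 4 libraries. It is not the spread between fetuses within the named class or stage. This SE becomes very large where F is near 0. For 18 of the 140 member contrasts it was missing or above 10, and these were not read.

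BMP6, a ligand best known for control of hepcidin and iron, had its highest level in fibroblasts, which gave 48.1% of its UMIs in the Control female, 79.9% in the Control male, 65.9% in the LPS female and 25.0% in the LPS male library. Its level there was 924.4 CPM in the Control female, 1814 CPM in the Control male, 1003 CPM in the LPS female and 933.3 CPM in the LPS male library. Every fibroblast value lay above every value of the next class, the Golgi cells, at 65.5, 47.0, 33.3 and 150.7 CPM in the same order of libraries. The log2 fold change was 6.05 ± 0.20 (SE from the fit of all classes in 4 libraries, edgeR adjusted p = 5.31e-30). It ran from 5.11 to 6.58 over the alternative ways of processing given at the end. The fibroblast mean was 1169 ± 432 CPM (SD, n = 4), 15.8-fold the Golgi cell mean. Below the Golgi cells, levels in the oligodendrocyte lineage, molecular layer interneurons and Bergmann glia, overlapped with their neighbours in the order.

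BMP5, a ligand of the BMP5/6/7 subgroup with a role in skeletal patterning, was also highest in fibroblasts. In fibroblasts it was 941.1 CPM in the Control female, 454.3 CPM in the Control male, 632.4 CPM in the LPS female and 452.1 CPM in the LPS male library. The granule lineage was next, at 15.1 CPM, 42.6 CPM, 103.5 CPM and 9.25 CPM in the same order, so the highest granule value stayed under the lowest fibroblast value. In fibroblasts the log2 fold change was 6.84 ± 0.29 (SE, edgeR adjusted p = 3.80e-25). Over the alternative ways of processing it ran from 3.73 to 7.8, beyond this SE, with the call kept wherever it could be fitted. Within the granule lineage the LPS libraries held both the highest and the lowest value.

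Many fibroblast nuclei carried both ligands. At least 1 BMP6 UMI was found in 111 of 137 nuclei of the Control female (81.0%, exact 95% interval 73.4 to 87.2), 184 of 212 of the Control male (86.8%, 81.5 to 91.0), 120 of 156 of the LPS female (76.9%, 69.5 to 83.3) and 26 of 40 of the LPS male library (65.0%, 48.3 to 79.4). For BMP5 the shares were 80.3%, 48.6%, 76.3% and 52.5%. The class of microglia and macrophages, called microglia for short in this report, was not split, and it served as background for free RNA. In this class no library had over 2.44% of nuclei with a UMI of either gene. Its median was 3858, 2091, 3733 and 2343 UMIs against 4612, 3227, 4034 and 2822 UMIs in fibroblasts. Nuclei with both ligands were 96, 97, 100 and 18, and nuclei with neither were 12, 22, 17 and 11. These shares rest on counting error alone and were not compared between libraries, whose depths differ.

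BMP2, a ligand that shares a subgroup with BMP4, was also led by fibroblasts. It was 95.3 CPM in the Control female, 51.6 CPM in the Control male, 38.7 CPM in the LPS female and 58.3 CPM in the LPS male library. All 4 values lay above those of microglia and macrophages, the next class, which reached 18.8 CPM from 12 UMIs in all. Its log2 fold change was 5.80 ± 0.40 (SE, edgeR adjusted p = 6.94e-17), and it ran from 4.19 to 6.15 over the alternative ways of processing. Of the fibroblast nuclei with a BMP2 UMI, 39 of 42, 22 of 23, 21 of 21 and 6 of 7 also held a UMI of BMP5 or BMP6. BMP2 was also called higher in microglia (log2 fold change 3.22 ± 0.83, against 14.2% of all genes), a call that ended without the Control female library (3.24, no longer past the adjusted p) and with classes from the marker score (1.04).

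**Figure D2:**
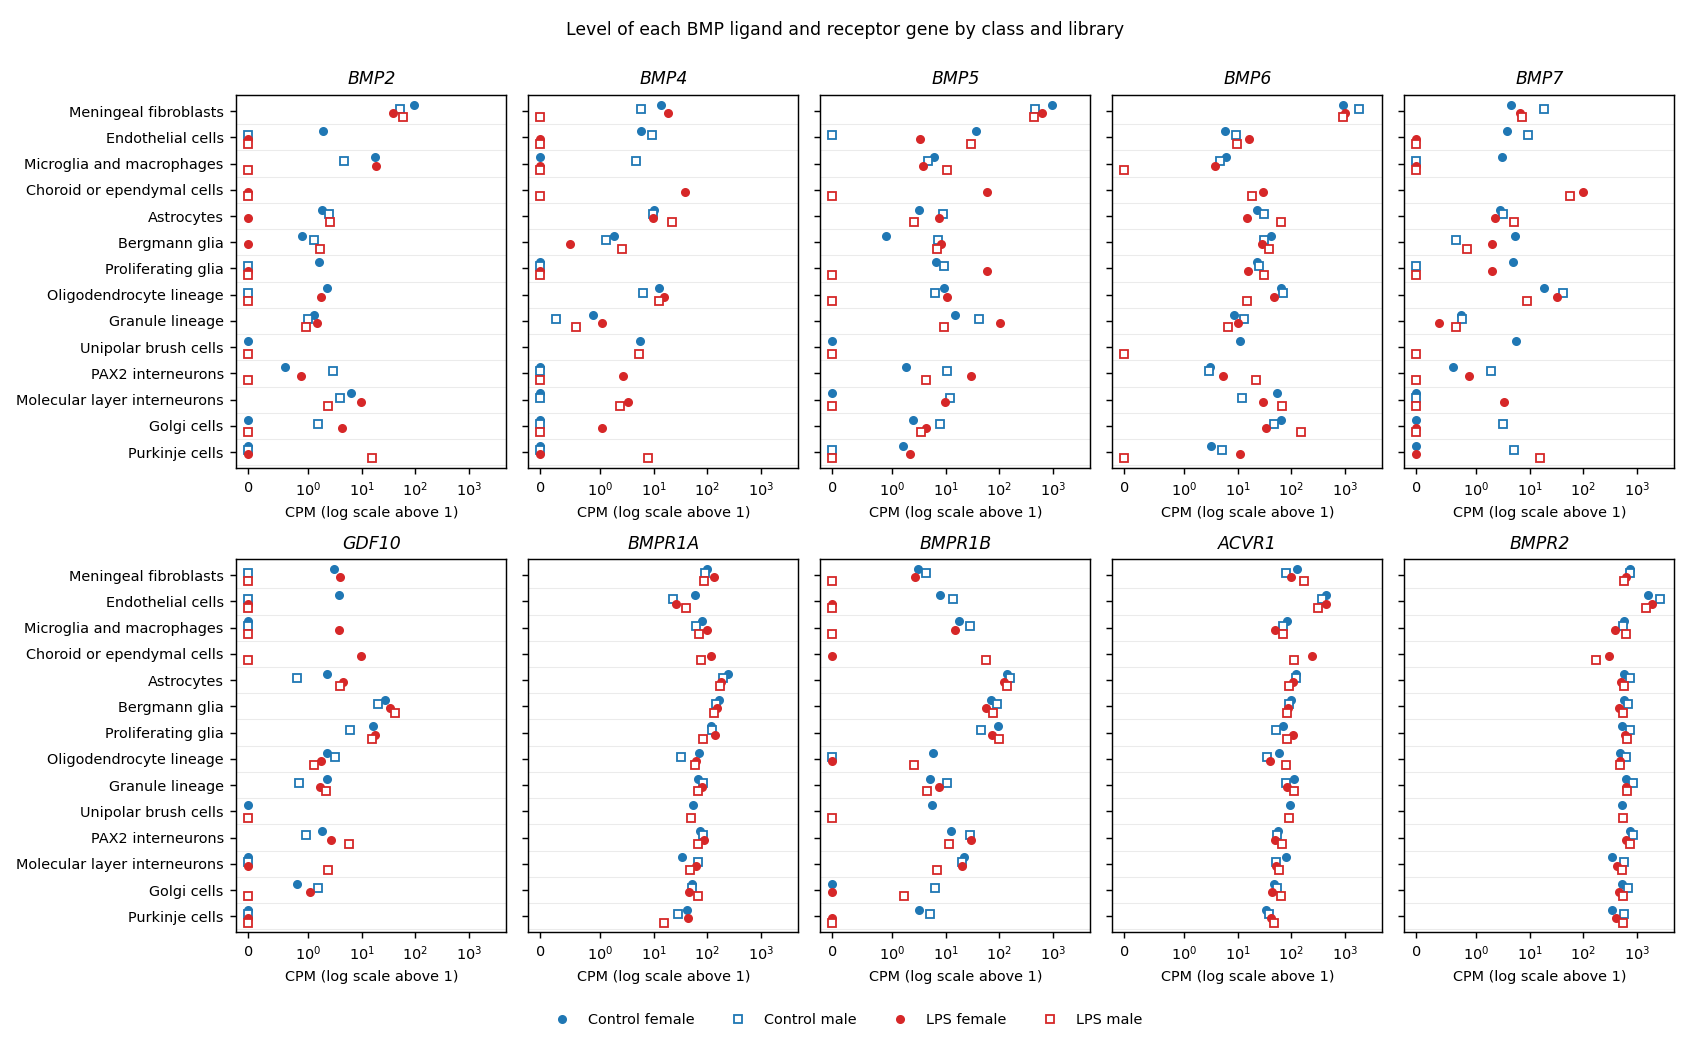
Level of each member in CPM, on an axis that is logarithmic above 1 CPM, in each class and library, with filled circles for female and open squares for male fetuses and blue for Control and red for LPS. BMP6 sat between 924.4 and 1814 CPM in fibroblasts and at most at 150.7 CPM in Golgi cells, while BMPR2 was at 170.6 CPM or more in every class.

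BMP4, a ligand with roles across early patterning, was low in every class and was spread over several. Choroid or ependymal cells had the highest mean, from 4 UMIs, at 39.2 CPM in the LPS female and 0 CPM in the LPS male library. In astrocytes it was 10.1 CPM in the Control female, 9.72 CPM in the Control male, 9.89 CPM in the LPS female and 22.0 CPM in the LPS male library. In the oligodendrocyte lineage it was 12.7, 6.43, 15.6 and 12.7 CPM, and in fibroblasts 13.6, 5.73, 18.7 and 0 CPM, where a count of 0 in the 40 nuclei of the LPS male library allows up to 21.9 CPM. Astrocytes, oligodendrocytes and fibroblasts overlapped with each other, and each of these 3 classes was called higher than the mean of the other classes, with log2 fold changes of 2.89 ± 0.41, 2.87 ± 0.49 and 2.63 ± 0.52 (SE, edgeR adjusted p = 1.34e-07, 7.18e-06 and 5.24e-05). They rest on 64, 32 and 27 UMIs over the 4 libraries.

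BMP7, known for its part in kidney and eye development, led in the oligodendrocyte lineage among the classes measured in all 4 libraries. It was 18.5 CPM in the Control female, 41.8 CPM in the Control male, 33.0 CPM in the LPS female and 8.90 CPM in the LPS male library. The lowest of these overlapped with fibroblasts, at 4.54, 18.6, 6.67 and 7.29 CPM. BMP7 had a log2 fold change of 3.31 ± 0.41 in the oligodendrocyte lineage (SE, edgeR adjusted p = 4.42e-09) and 1.63 ± 0.53 in fibroblasts (adjusted p = 0.0133), and the second call ended without the Control male library (log2 fold change 1.27). Choroid or ependymal cells were higher, at 97.9 CPM in the LPS female and 56.9 CPM in the LPS male library, but from 13 UMIs and with under 10 nuclei in each Control library. In that class BMP7 and BMP4 were called higher (against 7.65% of all genes) and BMPR2 lower (against 5.36%), and all 3 calls ended when classes were assigned by marker score. Against the summed other classes the BMP4 (2.97) and BMPR2 (-1.79) calls ended. The BMP4 call also ended without the Control female library (3.11) and the BMP7 call without the LPS female library (5.01).

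GDF10 marked Bergmann glia, the radial glia of the cerebellar cortex. It was 27.5 CPM in the Control female, 20.5 CPM in the Control male, 33.9 CPM in the LPS female and 41.5 CPM in the LPS male library. Proliferating glia, which share Bergmann markers and cell cycle genes, came next at 16.3, 6.19, 17.9 and 15.4 CPM, all below the lowest Bergmann value. In Bergmann glia its log2 fold change was 4.71 ± 0.27 (SE, edgeR adjusted p = 2.74e-19) and 3.36 ± 0.47 in proliferating glia (adjusted p = 1.56e-07), the latter a call that ended with classes from the marker score. Free RNA held GDF10 at 30.3 CPM in the Control female, 3.39 CPM in the Control male, 42.6 CPM in the LPS female and 10.3 CPM in the LPS male library, and the estimated share of free RNA in Bergmann nuclei was 9.13%, 15.4%, 6.71% and 23.6%. A GDF10 UMI was found in 16.9%, 5.39%, 15.8% and 11.1% of Bergmann nuclei, at median UMIs of 6022, 2260, 4848 and 2560, and in at most 1 microglial nucleus of any library.

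The type I receptors BMPR1A and BMPR1B had their highest levels in glia. Members called higher were 3 of 10 in astrocytes (BMP4, BMPR1A and BMPR1B, against 12.5% of all genes), 3 of 10 in Bergmann glia (BMPR1A, BMPR1B and GDF10, against 10.4%) and 2 of 10 in proliferating glia (BMPR1B and GDF10, against 11.2%).

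BMPR1B, whose loss is known from limb skeletal defects, was 139.6 CPM in astrocytes of the Control female, 156.4 CPM of the Control male, 120.2 CPM of the LPS female and 137.0 CPM of the LPS male library. In Bergmann glia it was 70.0, 89.1, 56.6 and 77.9 CPM, and in proliferating glia 92.8, 46.4, 73.5 and 100.2 CPM. Astrocytes stood above both, and the latter classes overlapped. The log2 fold changes were 3.98 ± 0.20, 3.02 ± 0.22 and 2.93 ± 0.30 (SE, edgeR adjusted p = 5.53e-22, 3.50e-16 and 3.11e-11). Fibroblasts, rich in ligand, were at 3.03, 4.30, 2.67 and 0 CPM, a log2 fold change of -2.07 ± 0.66 (edgeR adjusted p = 0.0112), and this call ended without the Control male library (-2.10).

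BMPR1A, the most widely used type I receptor in development, was 244.8 CPM in astrocytes of the Control female, 192.9 CPM of the Control male, 184.1 CPM of the LPS female and 169.3 CPM of the LPS male library. Bergmann glia followed at 164.8, 145.2, 152.6 and 132.1 CPM, below all 4 astrocyte values. The log2 fold changes were 1.56 ± 0.11 in astrocytes (SE, edgeR adjusted p = 4.90e-17) and 1.14 ± 0.11 in Bergmann glia (adjusted p = 3.05e-12), and the latter passed below 1 against the summed other classes (0.96) and with classes from the marker score (0.91). The lowest levels were in endothelial cells, with 58.0, 23.3, 26.6 and 39.5 CPM, and in Purkinje cells, with 41.9, 28.0, 43.6 and 15.9 CPM. BMPR1A was called lower in both, with log2 fold changes of -1.08 ± 0.21 and -1.03 ± 0.19, and the endothelial call ended with classes from the marker score (-0.38) and without the LPS female library (-0.90), and the Purkinje call without either male library (-0.86 without Control, -0.92 without LPS).

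The remaining receptors led in the endothelium. In endothelial cells 2 of 10 members were called higher (ACVR1 and BMPR2, against 15.4% of all genes) and 1 was called lower (BMPR1A, against 10.7%). ACVR1, or ALK2, the type I receptor mutated in fibrodysplasia ossificans progressiva, was 442.7 CPM in the Control female, 373.1 CPM in the Control male, 445.0 CPM in the LPS female and 315.8 CPM in the LPS male library. All 4 were above the highest value of the next class, the choroid or ependymal cells. The log2 fold change was 2.33 ± 0.13 (SE, edgeR adjusted p = 1.95e-21).

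BMPR2, the type II receptor mutated in heritable pulmonary arterial hypertension, was 1595 CPM in the Control female, 2663 CPM in the Control male, 1929 CPM in the LPS female and 1471 CPM in the LPS male library of the endothelium. The next class, the PAX2 interneurons, was at 750.0, 853.9, 613.7 and 742.2 CPM, below every endothelial value. The log2 fold change was 1.75 ± 0.10 (SE, edgeR adjusted p = 1.02e-20). From PAX2 interneurons down to molecular layer interneurons, 12 classes had means between 465.8 and 740.0 CPM and overlapped with their neighbours. Both endothelial calls ended with classes from the marker score (log2 fold changes 0.97 and 0.59). Summed levels of 8 mural cell markers in this class were 742.3, 335.8, 292.2 and 1313 CPM beside 12950, 13770, 16050 and 12610 CPM of endothelial markers, and their part in the receptor levels was not tested.

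Further calls lay in oligodendrocytes, neurons and microglia. BMP4, BMP6 and BMP7 were called higher in the oligodendrocyte lineage (3 of 10, against 9.49% of all genes) and BMPR1B lower (against 3.19%). BMP6 was called higher in Golgi cells (against 11.5%) and BMPR1B lower (against 5.97%). BMPR1B was called higher in PAX2 interneurons (against 6.43%) and BMP6 lower (against 5.10%). In microglia BMP6 was called lower (against 8.59%), and in Purkinje cells 4 of 10 members, ACVR1, BMP6, BMPR1A and BMPR1B, were called lower (against 10.8%). With classes from the marker score all of these calls ended except those of BMP4 and BMP7 in the oligodendrocyte lineage, and in Golgi cells BMP6 turned to -0.72 and BMPR1B went to -0.30. Against the summed other classes the calls of BMP6 in Golgi cells (1.01) and the oligodendrocyte lineage (0.35) and of BMPR1B in PAX2 interneurons (0.12) ended. That of BMP6 in Purkinje cells ended with free RNA subtracted (-2.15) and those of BMPR1B in the oligodendrocyte lineage (-1.82) and Purkinje cells (-1.91) with doublets removed, while BMPR1A in Purkinje cells passed above -1 under DESeq2 (-0.97) and with at least 1000 genes (-0.99). Without the Control female library the calls of BMP6 in the oligodendrocyte lineage (1.46) and ACVR1 in Purkinje cells (-0.98) ended. Without the LPS female library those of BMP6 in microglia (-2.74), PAX2 interneurons (-1.67) and Purkinje cells (-2.60) and of BMPR1B in PAX2 interneurons (0.50) and Purkinje cells (-1.88) ended. Without the Control male library those of BMP6 (1.06) and BMPR1B (-1.52) in the oligodendrocyte lineage and of BMP6 (-1.79) and BMPR1B (-2.37) in Purkinje cells ended. Of all 37 member calls, 24 held without the Control female library, where 4 were lost and 9 had no usable fit. Over all alternatives, 12 held in every alternative in which they could be fitted, namely BMP2, BMP4, BMP5 and BMP6 in fibroblasts, BMP4, BMPR1A and BMPR1B in astrocytes, BMP4 and BMP7 in the oligodendrocyte lineage, BMPR1B and GDF10 in Bergmann glia, and BMPR1B in proliferating glia.

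In the granule lineage as a whole BMP5 was called higher (1 of 10 members, against 9.17% of all genes; log2 fold change 2.29 ± 0.39) and BMP6 and BMP7 lower (against 4.62%). The BMP5 call turned to -0.39 against the summed other classes, a sum that holds the fibroblasts, and to -0.38 with classes from the marker score. The level of BMP6 in granule nuclei, at 8.46, 13.02, 10.0 and 6.66 CPM, stood beside an estimate of what free RNA would give of 0.706, 10.7, 0.485 and 3.63 CPM, which was nearest to the measured level in the Control male library. For BMP5 the same estimate was 1.08, 5.23, 2.75 and 3.02 CPM, below the measured level in every library. The BMP6 call ended without the LPS female library (-1.28) and the BMP7 call with classes from the marker score (-1.13).

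The granule lineage was then split into 5 stages, from proliferating precursors through committing, migrating and maturing to mature granule cells, to ask where along this lineage the members lie. BMP5 and BMPR1B were high in the first stages and low in the last. Each stage was compared with the mean of the others in the same way over 12023 genes, and 6 members had enough counts (BMP5, BMP6, BMPR1A, BMPR1B, ACVR1 and BMPR2). In both proliferating precursors (against 9.87% of all genes higher) and committing cells (against 7.81%) 2 of the 6, BMP5 and BMPR1B, were called higher.

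BMP5 was 51.1 CPM in proliferating precursors of the Control female, 87.1 CPM of the Control male, 181.7 CPM of the LPS female and 23.9 CPM of the LPS male library. In committing cells it was 66.1, 119.1, 361.0 and 39.3 CPM, in migrating cells 10.8, 21.6, 50.8 and 10.1 CPM, and in mature cells 1.95, 29.1, 59.0 and 2.73 CPM. The ranges of the stages overlapped because the libraries differed, but within each of the 4 libraries committing cells were highest and precursors next. The log2 fold changes were 1.98 ± 0.21 in committing cells (SE, edgeR adjusted p = 2.93e-07) and 1.27 ± 0.23 in precursors (adjusted p = 1.30e-04). The LPS female library was the highest and the LPS male library the lowest in precursors, committing and migrating cells.

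Summed levels of fibroblast markers were 195.4 to 254.7 CPM in precursors, 147.5 to 192.8 CPM in committing cells and 55.1 to 94.5 CPM in mature cells, so they too were higher in the earlier stages, and their part in the BMP5 levels was not tested. BMP6, whose level was also highest in fibroblasts, was 0.997 to 7.53 CPM in precursors and 4.41 to 11.3 CPM in committing cells.

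BMPR1B was 20.4 CPM in precursors of the Control female, 25.5 CPM of the Control male, 19.9 CPM of the LPS female and 26.9 CPM of the LPS male library. In committing cells it was 21.4, 39.2, 34.3 and 18.4 CPM, and in migrating cells 3.41, 6.62, 3.59 and 1.44 CPM. The lowest precursor value was above the highest migrating value, with means 6.15-fold apart. The log2 fold changes were 2.30 ± 0.22 in precursors, 2.61 ± 0.21 in committing cells, -2.06 ± 0.28 in maturing cells and -2.25 ± 0.39 in mature cells (SE, edgeR adjusted p = 5.23e-08, 6.72e-09, 3.69e-06 and 9.25e-05).

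In maturing cells BMP6 was called higher (1 of 6, against 8.24% of all genes), and BMP5 and BMPR1B lower (against 8.19%). The mature stage had the same calls in each direction (against 10.5% higher and 8.92% lower). BMP6 was called lower in migrating cells (against 8.88%) and in precursors (against 7.59%). It was 11.7, 16.2, 12.5 and 9.56 CPM in maturing cells, with a log2 fold change of 1.23 ± 0.24 (SE, edgeR adjusted p = 2.74e-04), and 2.52, 8.38, 1.44 and 5.75 CPM in migrating cells, with overlap with the other stages in both. Without the Control female library the BMP6 calls in mature (0.80), migrating (-1.08) and precursor cells (-0.80) and the BMP5 call in maturing cells (-0.79) ended. Without the LPS female library the BMP6 calls in mature (0.86) and migrating cells (-0.54) ended, without the LPS male library the BMP5 call in mature cells (-0.97) and the BMP6 call in precursors (-0.92), and without the Control male library the BMP6 call in precursors (-1.06). The BMP6 call in precursors also ended with free RNA subtracted (-1.24), doublets removed (-1.01) and at least 1000 genes (-0.88), the BMP6 call in mature cells with no filter on low counts and with at least 1000 genes (both 0.97), and the BMP6 call in migrating cells under DESeq2 (-0.98). In precursors of the Control male library BMP6 was 7.39 CPM, beside 8.72 CPM estimated from free RNA.

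The type II receptor peaked in the middle of the lineage. BMPR2 in migrating cells was 1003 CPM in the Control female, 1221 CPM in the Control male, 946.2 CPM in the LPS female and 1097 CPM in the LPS male library, all above the highest value of any other stage. Its log2 fold change of 0.90 ± 0.05 (SE, edgeR adjusted p = 1.83e-10) was below the size required for a call. In mature cells BMPR2 was 393.2, 561.5, 400.5 and 491.4 CPM. BMPR1A ran from a mean of 115.6 CPM in committing cells to 59.8 CPM in maturing cells, and its lowest migrating value, 85.5 CPM, was above its highest mature value, 73.7 CPM. ACVR1 had its highest mean, 108.1 CPM, in maturing cells, where its lowest value, 92.9 CPM, was above its highest migrating value, 83.2 CPM. Its other neighbouring stages overlapped. The other 4 members had means of at most 2.40 CPM in every stage.

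**Figure D3:**
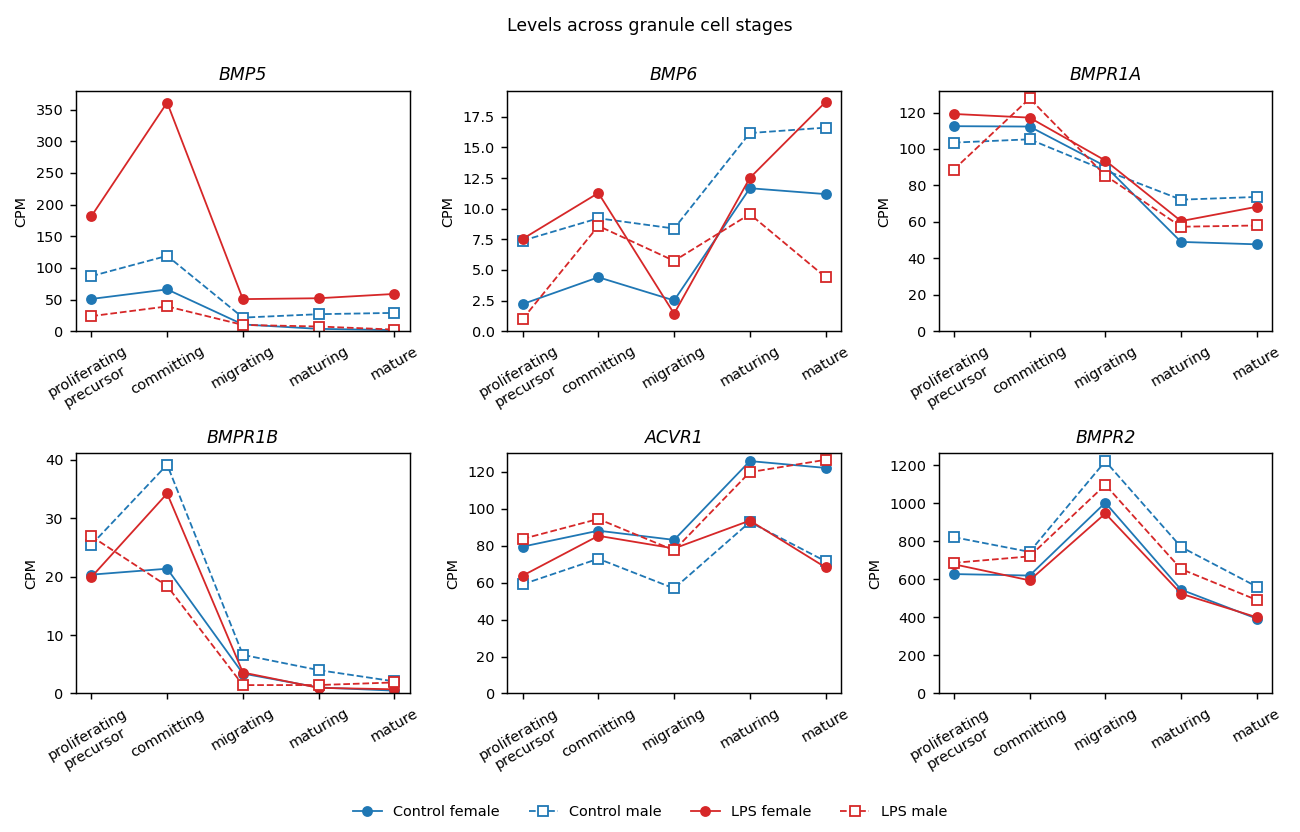
Level in CPM of the 6 members with enough counts, on linear axes that start at 0, in the 5 granule stages of each library, with filled circles and solid lines for female fetuses, open squares and dashed lines for male fetuses, and blue for Control and red for LPS. BMPR1B went from 19.9 to 26.9 CPM in precursors to at most 2.08 CPM in mature cells, and BMPR2 was highest in migrating cells of every library.

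Other genes of the BMP pathway were taken from a list of 61 genes, of which 51 were in the files and 35 had enough counts in the class fit. In fibroblasts 15 of the 35 were called higher and 2 lower, against 13.1% and 6.74% of all genes, with a median log2 fold change of 0.66, against 0.13 over all genes tested. BMP1, a metalloprotease that cleaves the BMP antagonist chordin and is listed with the ligands for its name, had a log2 fold change of 2.16 ± 0.34. Of 10 antagonists and binding proteins 4 were called higher (CRIM1, FSTL1, KCP and NBL1). NBL1, the secreted antagonist also called DAN, was 102.9, 157.7, 132.1 and 87.5 CPM (log2 fold change 3.43 ± 0.21), and KCP was 9.08, 15.8, 12.01 and 14.6 CPM (2.34 ± 0.54). Of 10 further receptors and co-receptors 5 were called higher, led by TGFBR3, or betaglycan, at 892.7, 765.4, 819.2 and 656.2 CPM (5.31 ± 0.23) and by ACVRL1, at 7.57, 4.30, 5.34 and 0 CPM (3.21 ± 0.63). SMAD6, an inhibitory SMAD, was 65.1, 76.0, 105.4 and 51.0 CPM (3.51 ± 0.34), SMAD5 was also higher, and SMAD9 was lower (-1.59 ± 0.40). Of 6 targets ID1, ID3 (3.24 ± 0.41) and ATOH8 (2.79 ± 0.62) were higher and ID2 was lower.

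In Bergmann glia 12 of the 35 pathway genes were called higher and 1 lower, against 10.4% and 2.61% of all genes, with a median log2 fold change of 0.37, against 0.10 over all genes. CHRDL1, a secreted BMP antagonist, was 56.8, 59.4, 74.3 and 49.95 CPM (log2 fold change 3.81 ± 0.27), and VWC2, another antagonist, was lower (-1.83 ± 0.62). The co-receptor RGMA was 164.5, 244.2, 191.5 and 215.9 CPM (2.72 ± 0.18), and TGFBR3 was also higher (1.60 ± 0.36). BMP1 (1.78 ± 0.29), GDF11 (1.13 ± 0.36) and SMAD6 (1.31 ± 0.43) were higher. Among targets ID4 was 251.4, 112.9, 325.0 and 195.6 CPM (3.59 ± 0.15), and ATOH8 (2.28 ± 0.54) and ID1 were higher. Astrocytes had 13 higher and 1 lower, against 12.5% and 4.52% of all genes, with 5 of 6 targets higher (HEY1, ID1, ID2, ID3 and ID4). Endothelial cells had 15 higher and 3 lower, against 15.4% and 10.7% of all genes, including the receptors ACVRL1 and ENG and the targets ID1, ID3, HEY1 and ATOH8. Purkinje cells had 4 higher and 9 lower, against 13.8% and 10.8% of all genes, and mature granule cells 3 higher and 10 lower of 30, against 10.5% and 8.92%.

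Genes most like each member over the 14 class means were found by Pearson's r among 12820 genes, as a description with no test, since the points share libraries and a few high classes set the value. BMP5 was most like COL1A2 (r = 0.897), FGF10 and SEC31A (both 0.893), all highest in fibroblasts. BMP6 was most like ADAM18 (0.882), SCARA5 (0.851) and EPHX1 (0.843), and BMP2 most like ACBD3 (0.927), ITIH2 (0.881) and JAML (0.880), again all highest in fibroblasts. GDF10 was most like PHYHD1 (0.941), TNC and STON1 (both 0.905), highest in Bergmann glia. BMPR1A was most like ABCA8 (0.961), RGMA (0.938) and EEA1 (0.928), and BMPR1B most like RFX4 and SORCS2 (both 0.939) and CEP162 (0.904). ACVR1 was most like LAYN (0.942), COMMD7 (0.926) and ID3 (0.918), and BMPR2 most like SLC37A3 (0.955), EIF4G2 (0.922) and SLC9A3R2 (0.919), all highest in endothelial cells. BMP4 was most like HRK (0.894), BMP7 (0.822) and MORF4L2 (0.814), and BMP7 most like SDHAF3 (0.875) and GIPC1 (0.866), where the choroid or ependymal class, with few nuclei, was highest. Among the members the closest other pairs were BMPR1A with BMPR1B (0.79), GDF10 with BMPR1A (0.73), GDF10 with BMPR1B (0.72) and BMP5 with BMP6 (0.66).

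LPS was compared with Control within 11 classes and the 5 stages that had at least 20 nuclei in every library, by edgeR over all genes with a call at an adjusted p under 0.1 and a log2 fold change beyond 0.25. The LPS female (day 131) and LPS male (day 133) were older than both Control fetuses (day 130), so LPS and gestation day cannot be told apart. None of the 89 member tests was called, and none had an unadjusted p under 0.05 with the filter on low counts. DESeq2 also called 0, and edgeR called 0% of all genes in each of the 16 units. The lowest unadjusted p was 0.0906, for BMP6 in the oligodendrocyte lineage, and the lowest adjusted p was 0.999. The log2 fold changes ran from -1.11 to 1.62, the latter for BMP5 in PAX2 interneurons (SE 1.10). The median of all 89 was -0.03, and their median SE was 0.44.

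LPS and Control libraries did not overlap in 13 of the 89 tests. Both LPS values were above both Control values in 3 of them, or 3.37% (against 9.21% over all gene tests), and both were below in 10, or 11.2% (against 8.51%). The 3 higher were GDF10 in Bergmann glia, ACVR1 in proliferating glia and BMPR1A in committing cells. Of the 10 lower, BMPR2 gave 3 (Bergmann glia, fibroblasts and PAX2 interneurons) and ACVR1 gave 3 (astrocytes, Bergmann glia and microglia). The others were BMPR1A and BMPR1B in astrocytes, BMP7 in the granule lineage and BMP6 in the oligodendrocyte lineage, at 63.5 and 70.8 CPM in the Control female and male and 46.9 and 15.3 CPM in the LPS female and male (log2 fold change -1.11 ± 0.59).

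In fibroblasts no ligand passed the test. BMP6 had a log2 fold change of -0.51 ± 0.37 for LPS over Control (SE, n = 2 per group), BMP5 of -0.37 ± 0.42 and BMP2 of -0.71 ± 0.49. Within sex the log2 ratio for BMP6 was 0.12 in females and -0.96 in males, and for BMP2 it was -1.30 and 0.18. BMPR2 was 741.4 and 736.7 CPM in the Control female and male and 627.1 and 576.0 CPM in the LPS female and male fibroblasts, with no overlap and a log2 fold change of -0.31 ± 0.28. The LPS male library gave only 40 fibroblast nuclei. The summed fibroblast markers in this class were also lower in the LPS female and male, at 9971 and 8502 CPM against 11050 and 12700 CPM in the Control female and male, and its estimated share of free RNA was higher, at 18.2% and 19.0% against 15.4% and 15.0%. Their part in the BMPR2 values was not tested.

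GDF10 in Bergmann glia was higher in both LPS libraries, at 33.9 and 41.5 CPM, than in the Control libraries, at 27.5 and 20.5 CPM, and the log2 ratio was 0.30 in females and 1.02 in males. Its log2 fold change of 0.61 ± 0.41 was not called (edgeR adjusted p = 1.00). In free RNA GDF10 was 42.6 and 10.3 CPM in the LPS female and male and 30.3 and 3.39 CPM in the Control female and male libraries, and its part in the difference was not tested. In astrocytes BMPR1B had a log2 fold change of -0.21 ± 0.30, BMPR1A of -0.33 ± 0.35 and BMP4 of 0.61 ± 0.59, and both receptors had LPS values below the Control values with no overlap. In the endothelium ACVR1 had -0.05 ± 0.40 and BMPR2 had -0.28 ± 0.45. BMP7 in the oligodendrocyte lineage had -0.44 ± 0.75, with 0.84 within females and -2.23 within males.

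In the granule lineage no member passed the test, and BMP7 was the member whose libraries did not overlap, at 0.748 and 0.766 CPM in the Control female and male and 0.387 and 0.666 CPM in the LPS female and male. These BMP7 values rest on only 49 UMIs over the 4 libraries. The receptors had log2 fold changes of -0.02 ± 0.28 (BMPR1A), -0.33 ± 0.54 (BMPR1B), 0.06 ± 0.36 (ACVR1) and -0.20 ± 0.28 (BMPR2). The ligands had 0.07 ± 0.71 (BMP2), 0.51 ± 0.99 (BMP4), 1.01 ± 1.14 (BMP5), -0.34 ± 0.43 (BMP6), -0.53 ± 0.82 (BMP7) and 0.24 ± 0.77 (GDF10). BMP5 went in opposite directions in the sexes, with a log2 ratio of 2.78 in females (15.1 CPM in Control, 103.5 CPM in LPS) and -2.20 in males (42.6 CPM in Control, 9.25 CPM in LPS). Its fitted value turned to -1.60 without the LPS female library. This direction was seen in 8 of the 9 classes and stages in which BMP5 was tested. They were the granule lineage, its 5 stages, which hold the same nuclei, PAX2 interneurons and Bergmann glia. PAX2 interneurons had log2 ratios of 3.99 in females and -1.29 in males. A BMP5 UMI was found there in 3, 8, 11 and 3 nuclei of the Control female, Control male, LPS female and LPS male libraries. Bergmann glia had 3.16 and -0.10, from 0.906, 7.26, 8.09 and 6.77 CPM in the same order. Free RNA would give an estimated 1.055, 6.52, 2.315 and 3.75 CPM there, and its part was not tested. The granule lineage also differed in makeup, since mature cells numbered 1498 in the LPS male library and 284 to 425 in the others.

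By stage, described here after its values were seen, BMP5 kept that opposition. The female and male log2 ratios were 1.83 and -1.86 in precursors, 2.45 and -1.60 in committing cells, 2.24 and -1.10 in migrating cells, 3.77 and -1.83 in maturing cells and 4.92 and -3.41 in mature cells. The ratios in mature cells rest on few UMIs, 4 in the Control female, 28 in the Control male, 82 in the LPS female and 13 in the LPS male library. These gave 1.95, 29.1, 59.0 and 2.73 CPM. The estimated share of free RNA in mature cells was 8.08%, 10.6%, 5.78% and 17.1% in the same order. BMP5 in free RNA itself was 11.6, 42.4, 34.5 and 15.9 CPM, and its part in the ratios was not tested. With no filter on low counts the SE of the fitted log2 fold change was smaller, 0.39 against 0.96 in committing cells, where the value was 1.18 in both fits, and the unadjusted p of BMP5 went under 0.05 in committing, migrating and mature cells, with edgeR adjusted p = 0.966 or above and no call. The stages are parts of the granule lineage in the same 4 libraries and are not separate observations. With 1 fetus of each sex per group, sex, depth, gestation day and free RNA cannot be told apart in these ratios.

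**Figure D4:**
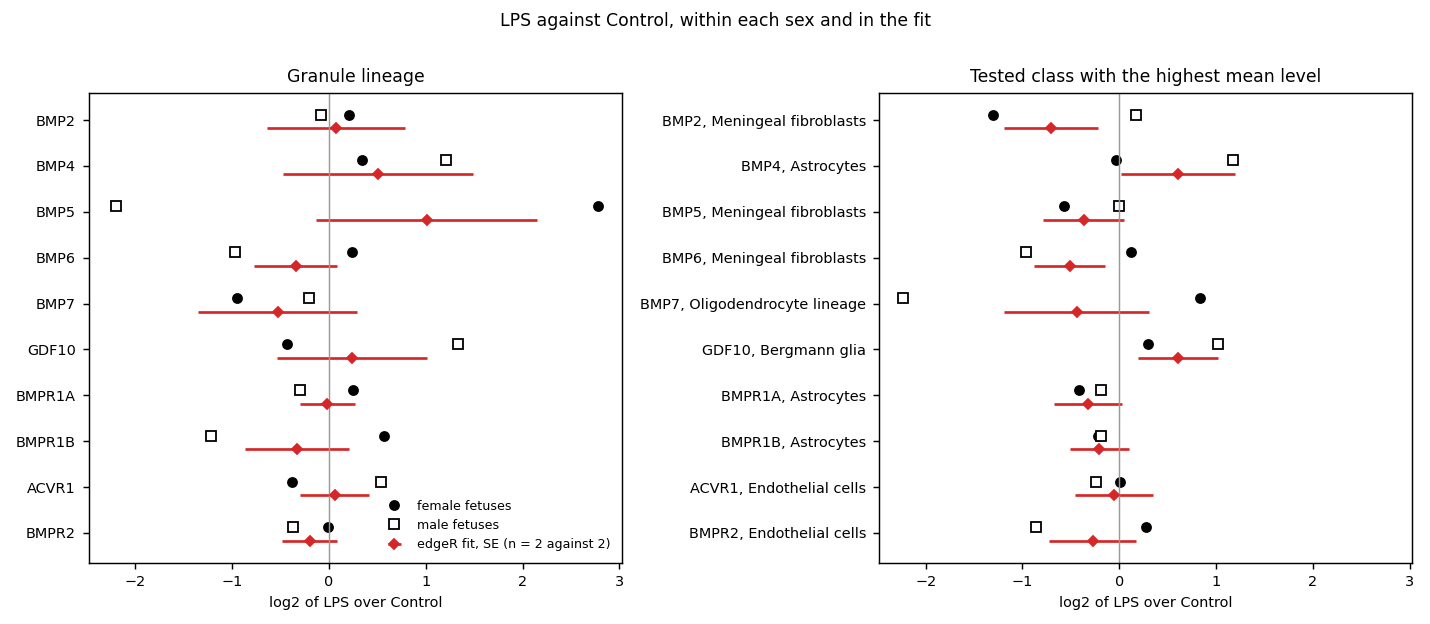
Log2 ratio of LPS over Control for each member in the granule lineage and in the tested class of its highest level, with a black circle for the female pair, an open square for the male pair and a red diamond for the edgeR log2 fold change with its SE. BMP5 in the granule lineage lay at 2.78 in females and -2.20 in males around a fitted value of 1.01 ± 1.14.

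Among the other pathway genes 359 tests of 39 genes in LPS against Control gave 0 calls by edgeR and 4 with an unadjusted p under 0.05. These were BMPER in fibroblasts (log2 fold change 3.15 ± 0.76, edgeR adjusted p = 0.999), TGFBR3 in microglia (-1.81 ± 0.62), CRIM1 in molecular layer interneurons (1.89 ± 0.62) and VWC2 in the same class (-1.28 ± 0.47).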

How the data were processed

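The authors isolated nuclei from fetal cerebellum, sequenced them on a droplet platform and aligned the reads, introns included, with Cell Ranger to the Mmul_8.0.1 genome. The labels name Cell Ranger 5.0, and the submitters' processing notes also list version 4. The deposited values are raw UMI counts per gene for all barcodes, with no correction for free RNA. From these counts, nuclei were kept where 500 or more genes were detected and no more than 5% of UMIs were mitochondrial, which left 32565 and dropped 22. Nuclei were integrated and clustered in Seurat 5.3.0 (2000 features, 30 dimensions, resolution 0.5), without the members and BMP pathway genes, and clusters were named from marker lists. Granule clusters were clustered again into 5 stages. Doublets were scored with scanpy 1.11.5 and kept, except that a cluster in which they were the majority was left unnamed. Free RNA was estimated from low-count barcodes.

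UMIs were summed per library and class or stage (at least 10 nuclei). edgeR 4.0.16 quasi-likelihood fits across all genes gave class and stage contrasts, with the library as a term, and LPS against Control (at least 20 nuclei in every library, no other term). DESeq2 1.42.0, no filter on low counts, doublets removed, free RNA subtracted, at least 1000 genes per nucleus, classes from a marker score, sex as a block and each library left out were alternatives. A comparison of each class with the summed other classes was added after seeing the data. The members, the pathway and marker lists and the tests were chosen with earlier results of these data known. The members named are all 10; LPS against Control is given in full for the granule lineage and for the tested class where each was highest, and pathway genes by the largest changes per role in fibroblasts and Bergmann glia. Each library is 1 fetus, and library totals were 34282015 to 61665690 UMIs. Confidence intervals and limits of a count of 0 (3 UMIs) cover counting error only. Scripts were tested on simulated data. No genome of this build was used here, so no sequences or coordinates are given.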

Additional observations from a re-analysis of the deposited data

Results flagged for a closer look

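In the following, LPS over Control was opposite in the female and male pair of fetuses, with 1 fetus per sex and group, so the difference between the sexes was not tested. BMP5 in the granule lineage had a log2 ratio of 2.78 in females and -2.20 in males. By stage BMP5 had 1.83 and -1.86 in proliferating precursors, 2.45 and -1.60 in committing cells, 2.24 and -1.10 in migrating cells and 3.77 and -1.83 in maturing cells. For BMP5 the same direction was seen in 8 of its 9 tested classes and stages, PAX2 interneurons and Bergmann glia included. BMPR1B in the granule lineage had 0.57 in females and -1.21 in males. In the stages where it was highest, it had -0.03 and 0.08 in precursors and 0.68 and -1.09 in committing cells. Mature cells, where BMPR1B was low, numbered 1498 in the LPS male library and 405, 425 and 284 in the Control female, Control male and LPS female. The part of this makeup in the BMPR1B ratios was not tested. The female libraries also had more UMIs per nucleus, so sex and this depth cannot be told apart. Groups of 2 libraries were too small to look for a library far from the others.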

How the results depend on the processing

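Against 37 class calls, the totals, with how many of the 37 held, were 39 (36) under DESeq2, 36 (34) with doublets removed, 36 (36) with free RNA subtracted, 41 (37) with no filter on low counts, 36 (36) with at least 1000 genes, 51 (30) against the summed other classes and 22 (15) with classes from the marker score. Without each library the total was 24 to 34 (24 to 32 held, and 1 to 9 had no usable fit). The stage count of 12 became 9 to 11, and the LPS count of 0 stayed 0 in every alternative, sex as a block included. The labels number no replicates, so that block paired the fetuses of the same sex. With classes from the marker score the log2 fold changes of BMP4 in choroid (-0.46), BMP6 in Golgi cells (-0.72) and BMP5 in the granule lineage (-0.38) turned, the last also against the summed other classes (-0.39). For LPS over Control in the granule lineage, BMP6 turned to 0.29 with free RNA subtracted, and BMPR1A to 0.0016 with doublets removed and 0.012 with free RNA subtracted. With each library left out, log2 fold changes for LPS in the granule lineage ran from -0.29 to 0.36 for BMP2, -0.091 to 1.80 for BMP4, -1.60 to 1.88 for BMP5, -0.30 to 1.25 for GDF10, -0.16 to 0.11 for BMPR1A, -0.75 to 0.19 for BMPR1B and -0.21 to 0.42 for ACVR1. They ran from -0.81 to 0.29 for BMP5 and -0.89 to 0.031 for BMP6 in fibroblasts, -1.72 to 0.29 for BMP7 in the oligodendrocyte lineage, -0.59 to 0.0067 for BMPR1A in astrocytes, -0.43 to 0.21 for ACVR1 and -0.57 to 0.085 for BMPR2 in endothelial cells. For BMP5 by stage they ran from -1.52 to 1.45 in precursors, -1.22 to 2.00 in committing, -0.67 to 1.70 in migrating, -1.003 to 2.90 in maturing and -2.39 to 3.88 in mature cells, with the lowest value always without the LPS female library. The causes were not tested. Classes with few UMIs of a member (BMP2, BMP4, BMP7 and GDF10) limit what could be seen there.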
